A study of Mus musculus with 41 samples.

Results

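The genes described are 10 lymphocyte genes, Cd3d, Cd3e, Cd3g, Cd4, Cd8a, Cd8b1, Gzmb, Prf1, Nkg7 and Foxp3, which were chosen by symbol from the 47480 gene symbols of an RNA-seq table of mouse mammary tumors. All 10 were in the table. The table holds 41 tumors, 28 Plk2-/-; p53-/- and 13 p53-/-, each sequenced as 1 library. Both groups were Balb/c mammary tumors, grown without treatment in the mammary fat pad of syngeneic mice, and p53 was deleted in both. The Plk2-/-; p53-/- line began as mammary epithelial cells of double-deficient Balb/c mice, which were transplanted into wild-type Balb/c hosts after clearing of the fat pad, and the p53-/- tumors came from an existing transplantable bank. Whole tumors were sequenced, so lymphocyte RNA in a tumor can come from the host. The study gives a latency range for the Plk2-/-; p53-/- tumors, and no age is given here per tumor. PLK2null-732, PLK2null-733, PLK2null-743 and the p53-/- tumor T11 were taken as claudin-low, a class of mammary tumor with low expression of cell adhesion genes. The authors assigned this class by clustering expression values of the tumors, and whether any of the 10 genes was among those clustered is not given in the sources used here. The name is used here as a label, and T11 was unlike the other claudin-low tumors in other cell type genes. Summed over 6 endothelial genes T11 held 6876 units, against 165585 to 186496 in the others. Summed over 6 epithelial genes T11 held 33742, against 45.7 to 291.

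T cells recognize antigen through a receptor whose signal is carried by the CD3 chains encoded by Cd3d, Cd3e and Cd3g. The coreceptor CD4 marks helper T cells, although some mouse macrophages and dendritic cells express Cd4 as well, and CD8, a dimer of the products of Cd8a and Cd8b1, marks cytotoxic T cells. Cytotoxic T cells and natural killer cells kill by releasing perforin (Prf1), which opens the target membrane, and granzyme B (Gzmb), a protease that triggers cell death, from granules that also carry the membrane protein NKG7. Foxp3 is the transcription factor that defines regulatory T cells.

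Values are linear, and each library was scaled to an upper quartile of 1000 over its nonzero genes. Low values lay on steps that give the worth of a single read, 0.388 to 0.817 units, from which depths of 29409609 to 70868124 fragments followed. A value worth 3 reads, 1.16 to 2.45 units, was taken as the floor of detection, for counting error only. Cd4 and Foxp3 were above this floor in every tumor, and Cd3d and Prf1 were at or below it most often, in 9 and 8 tumors. Plk2, the deleted gene, lay between 36.6 and 553 in the Plk2-/-; p53-/- tumors and between 186 and 8028 in the p53-/- tumors, and the lowest of the latter belonged to the library labelled p53null-7435. A library series and the genotype cannot be told apart, since a series name stands in the title of each of the 13 p53-/- libraries and in no other. PLK2null-1981 stood apart by its B cell genes, with a summed level of 5663 over 6 genes against at most 1203 in any other tumor, and results are given without it where it decides them. In bulk tumors fewer T cells and less RNA per T cell cannot be told apart.

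Cd3g and Cd3d start 1355 bases apart on chromosome 9 and are read away from each other. Cd3d spans 44981786 to 44987339 on the plus strand and Cd3g spans 44969572 to 44980431 on the minus strand in the GENCODE vM21 annotation of GRCm38, the mm10 build. Cd3e lies beyond Cd3d, at 44998740 to 45009627 on the minus strand. Cd8b1 (chr6:71322788-71337494) and Cd8a (chr6:71373427-71379173) are also neighbours, 35933 bases apart, and Cd4 lies on the minus strand at chr6:124864692-124888221. Prf1 is at chr10:61297833-61304680, Nkg7 at chr7:43437073-43438249, Gzmb at chr14:56258838-56262260 on the minus strand, and Foxp3 at chrX:7573644-7595245. The 150 bases upstream of the RefSeq start (GRCm38.p6) are printed for the neighbouring pair Cd3d and Cd3g, and for the killing genes Prf1 and Gzmb, of which Prf1 passed the claudin-low test and Gzmb did not. Capitals mark matches on either strand to TGTGGT (Runx), GGAAGT (Ets), CAGGTG (an E-box) or TCACACC (T-box).

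Cd3d (chr9:44981636-44981785, plus strand): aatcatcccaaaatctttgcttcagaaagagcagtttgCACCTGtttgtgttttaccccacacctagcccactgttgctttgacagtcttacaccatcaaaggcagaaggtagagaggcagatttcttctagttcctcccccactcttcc
Cd3g (chr9:44980432-44980581, minus strand): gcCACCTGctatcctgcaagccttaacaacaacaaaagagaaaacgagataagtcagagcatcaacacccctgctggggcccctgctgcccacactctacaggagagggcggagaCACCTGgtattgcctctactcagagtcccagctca
Prf1 (chr10:61297686-61297835, plus strand): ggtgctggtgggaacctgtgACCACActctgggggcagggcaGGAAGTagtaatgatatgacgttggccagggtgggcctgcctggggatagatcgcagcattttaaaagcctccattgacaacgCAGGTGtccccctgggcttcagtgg
Gzmb (chr14:56262335-56262484, minus strand): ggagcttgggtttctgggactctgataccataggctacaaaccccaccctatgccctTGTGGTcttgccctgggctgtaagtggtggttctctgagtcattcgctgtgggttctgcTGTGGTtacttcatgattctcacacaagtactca

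RefSeq promoter entries were found for 8 of the 10 genes, and those of Cd4 and Cd8b1 were not found. An E-box match lay in the Cd3d window, and 2 lay in the Cd3g window, against 10.6% of 32851 promoter windows of this length. The Gzmb window held 2 Runx matches and no E-box match. The Prf1 window held 1 match each to the Runx, Ets and E-box letters. Runx and Ets letters were in 8.40% and 13.6% of all windows, and T-box letters, in 1.92% of all windows, were in none of the 4 printed here. A match is a description of the letters and not of binding.

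Cd4 had the highest level per length of the 10 genes in the Plk2-/-; p53-/- tumors. On the scale of the median value per kilobase of merged exons, Cd4 stood at 168 in the 3 claudin-low Plk2-/-; p53-/- tumors, at 24.4 in the other 25 and at 23.1 in the 13 p53-/- tumors. In the 25 other Plk2-/-; p53-/- tumors, Nkg7 at 15.1 and Gzmb at 14.8 per kilobase came next, and Prf1, at 2.35, was lowest. In the claudin-low tumors the order differed. Cd8b1 (91.0), Cd3d (87.5) and Nkg7 (64.2 per kilobase) followed Cd4, and Gzmb stood at 16.95, above only Foxp3 at 11.02. In the p53-/- tumors Nkg7 (28.3 per kilobase) was above Cd4, and Prf1 was again lowest at 2.20. Values of neighbours in these orders, such as Nkg7 and Gzmb, are medians whose tumors overlap.

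**Figure D1:**
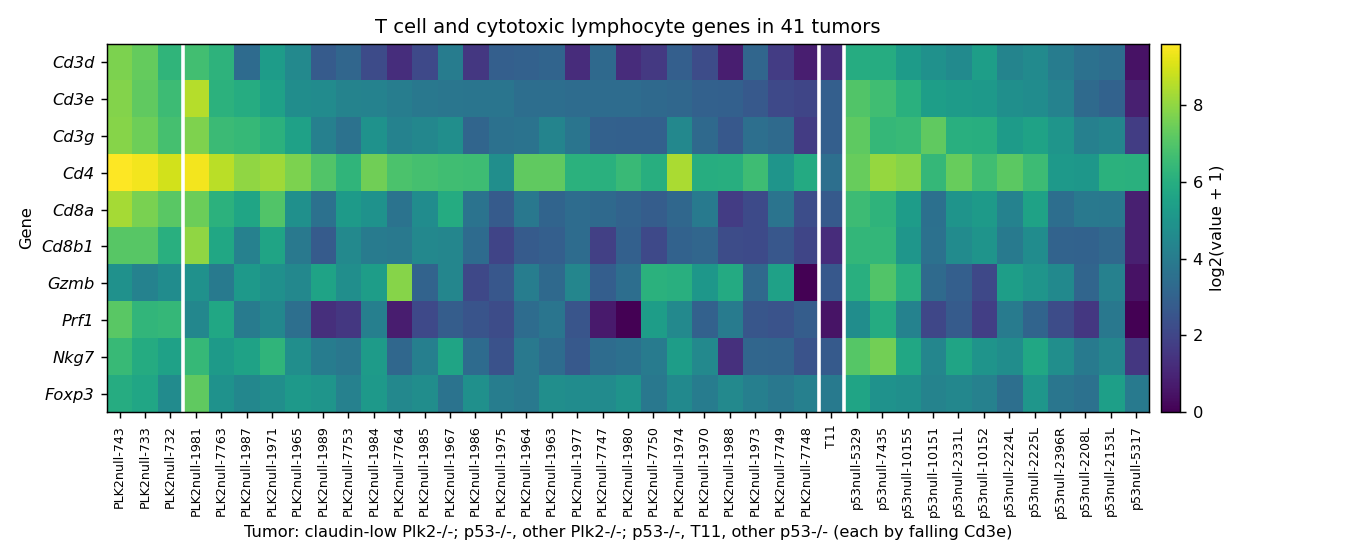
Each row is a gene and each column a tumor, and color gives log2(value + 1). White lines separate the 3 claudin-low Plk2-/-; p53-/- tumors, the other 25, T11 and the other 12 p53-/- tumors, each ordered by falling Cd3e. The T cell rows are bright in the 3 claudin-low tumors and in PLK2null-1981 and dark in T11 and p53null-5317.

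The first comparison asked whether T cell and killing genes differed between tumors with and without Plk2. None of the 10 genes passed the test between genotypes. With limma on log2(value + 1) and Benjamini-Hochberg adjustment over the 17208 genes with a mean of at least 10, 0 of 10 were called at an adjusted p below 0.05, against 39.5% of all genes tested, and 0 of 10 had an unadjusted p below 0.05 or were called by limma with a mean-variance trend. The median difference of the 10 was 0.04 on the log2 scale, beside 0.10 over all genes tested. Of all genes called, 4175 were higher and 2627 lower in the Plk2-/-; p53-/- tumors, a split that became 3390 and 3468 after rescaling by trimmed mean of M values and 3489 and 3258 after quantile normalization. Those scalings moved the median over all genes to -0.01 and 0.00.

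Cd3d ran from 0.749 to 205 in the Plk2-/-; p53-/- tumors (median, 6.72) and from 0.388 to 60.8 in the p53-/- tumors (median, 22.96). Cd3g ran from 2.26 to 228 (median, 17.6) and from 2.33 to 150 (median, 44.5) in the same groups. Cd3e ran from 3.01 to 367 (median, 12.5) and from 0.775 to 125 (median, 26.1). For all 3 CD3 chains the medians were lower in the Plk2-/-; p53-/- tumors, yet the groups overlapped, and the tumors with the highest values were also Plk2-/-; p53-/-. The log2 differences were -0.82 (SE, 0.62) for Cd3d, -0.73 (SE, 0.54) for Cd3g and -0.23 (SE, 0.55) for Cd3e, with adjusted limma p-values of 0.307, 0.297 and 0.770.

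Cd4 showed the opposite sign, with a log2 difference of 0.71 (SE, 0.42; adjusted limma p = 0.188). Its values ran from 25.5 to 770 (median, 112) in the Plk2-/-; p53-/- tumors and from 10.4 to 267 (median, 93.3) in the p53-/- tumors. The CD8 chains were closer still between the genotypes. The log2 differences were 0.13 (SE, 0.57) for Cd8a and -0.05 (SE, 0.56) for Cd8b1, and neither passed the test (adjusted limma p = 0.884 and 0.950).

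Among the killing genes, Nkg7 differed by -0.61 (SE, 0.47), Prf1 by 0.55 (SE, 0.58) and Gzmb by 0.31 (SE, 0.53) on the log2 scale, none past the test. The library labelled p53null-7435 held the highest values of the p53-/- tumors for all 3, with Gzmb at 125, Prf1 at 58.6 and Nkg7 at 188, and without it their differences were 0.56, 0.80 and -0.39. Gzmb was highest of all 41 tumors in PLK2null-7764, at 230, where Prf1 was 0.687, at or below the floor. Foxp3 had the smallest standard error of the 10 genes. It ran from 11.4 to 149 (median, 23.7) and from 10.3 to 46.9 (median, 18.4), with a log2 difference of 0.25 (SE, 0.24; adjusted limma p = 0.418).

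With the 4 claudin-low tumors left out, 25 against 12, Cd3d and Cd3g were lower in the Plk2-/-; p53-/- tumors. The log2 differences were -1.52 (SE, 0.53; adjusted limma p = 0.0186) for Cd3d and -1.26 (SE, 0.49; adjusted limma p = 0.0361) for Cd3g. Over its 11 alternatives the adjusted p ran from 0.0186 to 0.429 for Cd3d and from 0.0361 to 0.389 for Cd3g. These 2 of 10 genes stand beside 17.4% of all genes called lower in the same fit, a like share, and nothing is read from the count. Cd3d was at or below the floor in 7 of the 25 tumors and 1 of the 12. Median depth was 39053966 fragments over all Plk2-/-; p53-/- libraries and 58042777 over all p53-/- libraries. The part of depth was not tested. Cd3e, the third chain, was at -0.72 (SE, 0.51; adjusted limma p = 0.268).

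**Figure D2:**
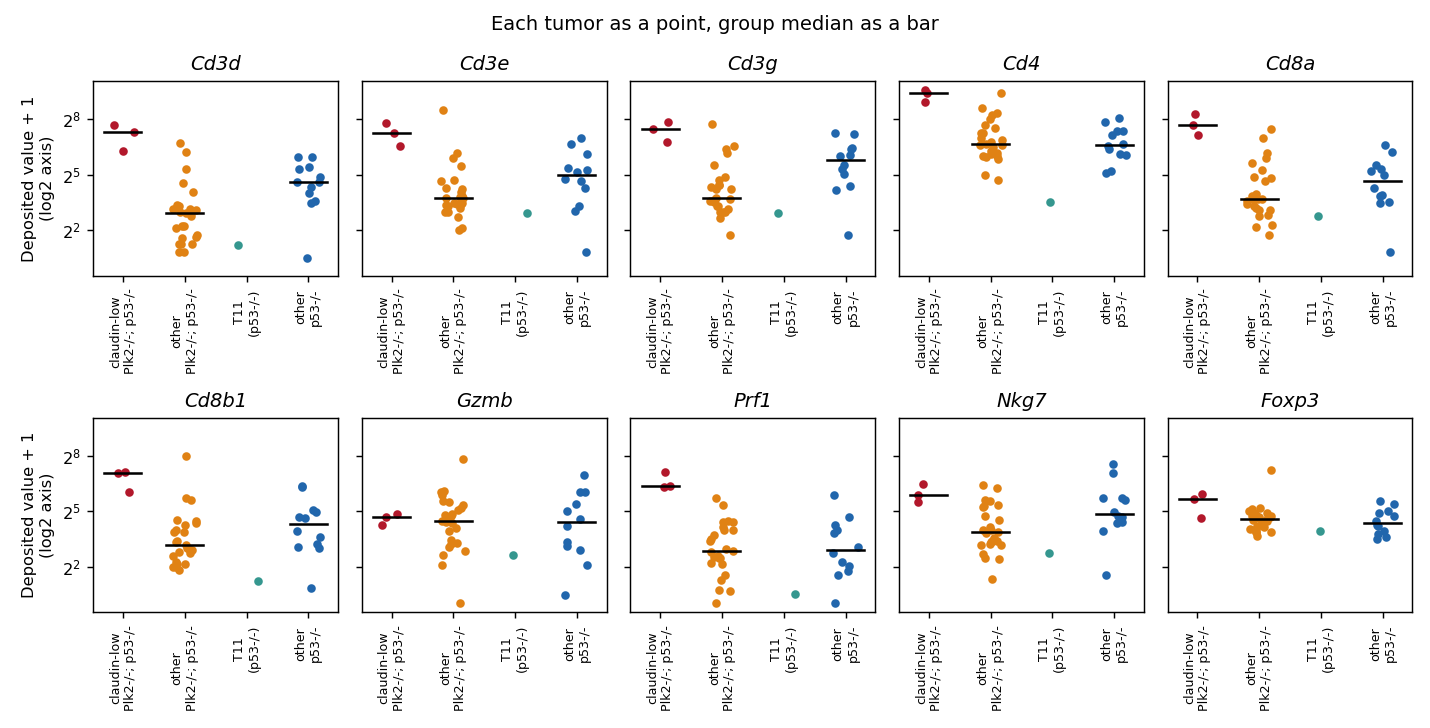
Each point is a tumor, on a log2 axis of the deposited value plus 1, in 4 classes: claudin-low Plk2-/-; p53-/- (n = 3), other Plk2-/-; p53-/- (n = 25), T11 (n = 1) and other p53-/- (n = 12). Black bars are medians. For Prf1 the 3 claudin-low tumors lie above all 25 others, and for Gzmb they lie inside them.

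The second comparison set the 3 claudin-low Plk2-/-; p53-/- tumors against the other 25 of that genotype. The libraries most alike over all genes were pairs of this genotype, PLK2null-732 with PLK2null-733 among the closest, and if such tumors are related the p-values are too small. Here 8 of the 10 genes were higher in the claudin-low tumors and none was lower, while Gzmb and Foxp3 did not pass the test. Of the 17153 genes tested, 37.3% were called in either direction and 20.2% were called higher. The median log2 difference of the 10 was 3.20, beside 0.02 over all genes tested.

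All 3 CD3 chains were higher. Cd3d was 75.9 in PLK2null-732, 159 in PLK2null-733 and 205 in PLK2null-743, against 0.749 to 102 (median, 6.42) in the other 25. Its log2 difference was 4.25 (SE, 0.90; adjusted limma p = 0.00042). Cd3e was 93.1, 149 and 223 in the same 3 tumors, against 3.01 to 367 (median, 12.4), a log2 difference of 3.22 (SE, 0.80; adjusted limma p = 0.00203). Cd3g was 109, 179 and 228, against 2.26 to 210 (median, 12.2), a difference of 3.18 (SE, 0.80; adjusted limma p = 0.00226). For each of the 3 chains a single other tumor, PLK2null-1981, was above the lowest claudin-low tumor.

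The coreceptors followed. Cd8a stood at 141, 203 and 313 in PLK2null-732, PLK2null-733 and PLK2null-743, against 2.25 to 173 (median, 11.7) elsewhere in the genotype. Its log2 difference was 3.64 (SE, 0.85; adjusted limma p = 0.00119). Cd8b1 stood at 64.4, 137 and 135, against 2.50 to 254 (median, 8.05), with a difference of 3.23 (SE, 0.82; adjusted limma p = 0.00248). The top of both ranges was PLK2null-1981, which again was the only other tumor above the lowest claudin-low tumor. Cd4 stood at 494, 676 and 770, against 25.5 to 685 (median, 98.4), with a smaller difference of 2.46 (SE, 0.63; adjusted limma p = 0.00291).

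The killing genes parted. Prf1 was 83.1, 78.5 and 139 in PLK2null-732, PLK2null-733 and PLK2null-743, against 0 to 51.0 (median, 6.08) in the other 25, of which 5 were at or below the floor. Its log2 difference was 3.64 (SE, 0.82; adjusted limma p = 0.000865). The groups did not overlap for Prf1 alone of the 10. How many of all genes tested had no overlap was not counted, so nothing is read from this. Nkg7 was 44.4, 58.7 and 87.0, against 1.497 to 84.7 (median, 13.8), and 4 of the 25 were above the lowest claudin-low tumor. Its difference of 1.93 (SE, 0.73) was the weakest past the threshold (adjusted limma p = 0.0379), and it was lost on leaving out any 1 of the 3 claudin-low tumors, with adjusted p-values of 0.0746 to 0.169. Gzmb was 24.3, 17.98 and 28.2, in the middle of the range of the other 25, 0 to 230 (median, 21.3). Its log2 difference was 0.24 (SE, 0.90; adjusted limma p = 0.862).

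Foxp3 was 23.5, 50.4 and 60.8 in the 3 claudin-low tumors, against 11.4 to 149 (median, 22.6) in the others, 12 of which were above the lowest claudin-low tumor. The log2 difference of 0.84 (SE, 0.42) did not pass the test (adjusted limma p = 0.121). The highest value, 149, was that of PLK2null-1981. Without this tumor, an alternative that was not planned, the Foxp3 difference was 0.95 (SE, 0.29; adjusted limma p = 0.0107). That made 9 of 10 genes higher, beside 3425 of the 17154 genes tested. Over all 14 alternatives the adjusted limma p of Foxp3 ran from 0.00958 to 0.439.

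**Figure D3:**
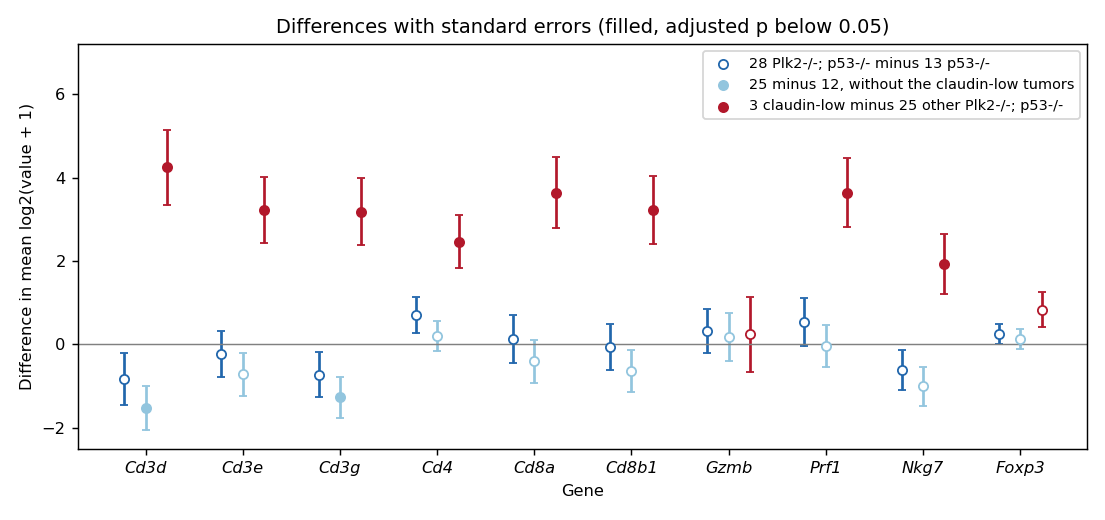
Points are differences in mean log2(value + 1) with standard errors, for the genotypes over all tumors (dark blue), the genotypes without the claudin-low tumors (light blue) and claudin-low against other Plk2-/-; p53-/- tumors (red). Filled points have an adjusted p below 0.05. Red points are filled for 8 genes, light blue points for Cd3d and Cd3g, and no dark blue point is filled.

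Genes of other cell types differed along with the T cell genes. Summed over 6 B cell genes, among them Cd79a and Ms4a1, the claudin-low tumors held 903 to 1203 units, against 45.1 to 5663 (median, 121) in the other 25, and 5 of the 6 genes were called higher. Summed over 6 endothelial genes the claudin-low tumors held 165585 to 186496, against 2572 to 78025 (median, 4877), and all 6 were called higher. Summed over 6 genes of lymph node and lymphatic vessels (Ccl21a, Madcam1, Glycam1, Lyve1, Prox1 and Mmrn1) they held 76792 to 136106, against 21.7 to 57262 (median, 92.8), and 5 were called higher. The highest of the other 25 in both vessel sums was PLK2null-7763. In this tumor Prf1 (51.0), Cd3d (73.5) and Cd4 (389) were each at rank 5 from the highest of 41. Cd3e, Cd3g and Cd8b1 were at rank 7, Cd8a at 8, Foxp3 at 12, Nkg7 at 15 and Gzmb at 27. Macrophage genes, at 11344 to 18885 summed over 6, lay inside the range of the others, 4496 to 35466. Epithelial genes were low, with 45.7 to 291 units over 6 genes against 13539 to 119162. Pan-leukocyte genes, at 6931 to 9629 summed over 4, also lay inside the range of the others, 1290 to 12313, and 2 of the 4 were called higher. Among them Ptprc, which encodes CD45, was 2618 to 3653, against 359 to 1962. The part of these cell types in the T cell result was not tested. Without PLK2null-1981 and PLK2null-7763 the differences were 4.56 for Cd3d, 3.51 for Cd3e and 3.82 for Prf1. Both tumors stood above the mean of the other 25 for these 3 genes. Leaving them out could only widen the differences, and nothing is read from it about the cell types.

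T11, the claudin-low tumor of the p53-/- genotype, did not have high T cell genes. It held Cd3d at 1.30, Cd3e and Cd3g at 6.49, Cd4 at 10.4, Cd8a at 5.63, Cd8b1 at 1.30, Prf1 at 0.433, Gzmb at 5.19 and Nkg7 at 5.63. Its Cd4 was the lowest of all 41 tumors, and its Cd3d, Cd8b1 and Prf1 were at or below the floor. For 7 of the 10 genes p53null-5317 alone, of the other 12 p53-/- tumors, was lower than T11, and for Cd4 none was. Foxp3, at 14.5, was the exception, with 4 of the 12 below it. Epcam was 81.4 in T11, near the 9.60 to 87.4 of the other claudin-low tumors, but its endothelial sum was 6876 and its B cell sum 41.9, inside the ranges of the other p53-/- tumors. Its epithelial sum, 33742, was far above the 45.7 to 291 of the other claudin-low tumors. Its pan-leukocyte sum, 11195, was above the 2084 to 9739 of the other p53-/- tumors and the 6931 to 9629 of the other claudin-low tumors. The mean log2(value + 1) of the same 4 genes was 10.09 in T11, inside the 8.61 to 10.87 of the other p53-/- tumors and below the 10.37 to 10.90 of the other claudin-low tumors. T11 is a single library and has no replicate.

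When T11 was set with the other 3, 4 claudin-low against 37 other tumors with genotype as a covariate, 2 of 10 genes were called higher, against 16.1% of all genes. These were Cd3d, at 2.35 (SE, 0.92; adjusted limma p = 0.0475), and Cd8a, at 2.26 (adjusted limma p = 0.0348). The difference in Plk2-/-; p53-/- tumors minus that of T11 from the other 12 p53-/- tumors, computed after the values were seen, was 7.41 on the log2 scale for Cd3d, 6.17 for Cd8b1, 6.13 for Prf1, 5.73 for Cd3g, 5.604 for Cd4 and 5.38 for Cd8a. It was 5.01 for Cd3e, 4.22 for Nkg7, 1.79 for Gzmb and 1.34 for Foxp3. These values are a description. A limma term called the first 6, beside 9.97% of all genes in either direction and 6.54% in this one, but it borrows the spread of the other tumors for T11, which is 1 library, and is no test of the genotype, which cannot be told apart from the tumor.

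p53null-5317 held the lowest Cd3d, Cd3e, Cd8a and Cd8b1 of the 41 tumors. Cd3e and Cd8a were both 0.775, Cd8b1 was 0.775, Cd3d and Gzmb were 0.388, and no Prf1 was counted, all at or below the floor of 1.16 in this library. Cd4 was nonetheless 66.3 and Foxp3 14.5, at ranks 10 and 8 from the lowest of 41. PLK2null-7748, with Cd3e at 3.01, Cd3g at 2.26 and Gzmb at 0, likewise kept Cd4 at 57.2 and Foxp3 at 17.2.

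Ratios of 2 genes within a tumor, each as value plus 1, depend little on how its library was scaled. They were compared over tumors with both genes above the floor, with 6 ratios in each comparison and adjustment over all 12. Foxp3 was lower relative to Cd4 in the claudin-low tumors, with a mean log2 ratio of -3.90 ± 0.38 (SD, n = 3) against -2.28 ± 0.84 (SD, n = 25). The difference was -1.62 (exact permutation test, 2-sided, p = 0.00183, adjusted p = 0.0220). Over all 41 tumors the SD of log2(value + 1) was 0.72 for Foxp3 and 1.32 for Cd4, so this ratio can fall where Cd4 alone rises. Whether regulatory T cells were fewer relative to helper T cells was not tested. Gzmb was lower relative to Cd3e, at -2.60 ± 0.62 (SD, n = 3) against 0.48 ± 1.84 (SD, n = 24). Here the difference was -3.08 (exact permutation test, p = 0.00786, adjusted p = 0.0472). Both calls were lost on leaving out any 1 of the claudin-low tumors, with adjusted p-values of 0.0883 to 0.103 for Foxp3 to Cd4 and 0.0883 to 0.129 for Gzmb to Cd3e, and 1 was lost over all tumors (Gzmb to Cd3e, adjusted p = 0.0604 by an exact permutation test).

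For Prf1 to Cd3e the 3 claudin-low tumors had a mean log2 ratio of -0.59 ± 0.39 (SD, n = 3), and 20 others had one of -0.48 ± 1.36 (SD, n = 20; exact permutation test, p = 0.893). The 5 others with Prf1 at or below the floor are left out there, and over all tumors the difference was 0.41 in place of -0.11. Nkg7 to Cd3e was lower, with a difference of -1.37, without passing the adjusted threshold (exact permutation test, p = 0.0291, adjusted p = 0.0711). The balance of Cd8a to Cd4, at -1.61 ± 0.27 (SD, n = 3) against -2.72 ± 1.08 (SD, n = 24), and of Cd8a to Cd3e did not pass either. Between the genotypes no ratio passed the adjusted threshold. The closest were Prf1 to Cd3e, 1.10 higher in the Plk2-/-; p53-/- tumors, and Cd8a to Cd4, with a difference of -0.78, each with an adjusted p of 0.0711 by permutation tests of 100000 resamples.

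**Figure D4:**
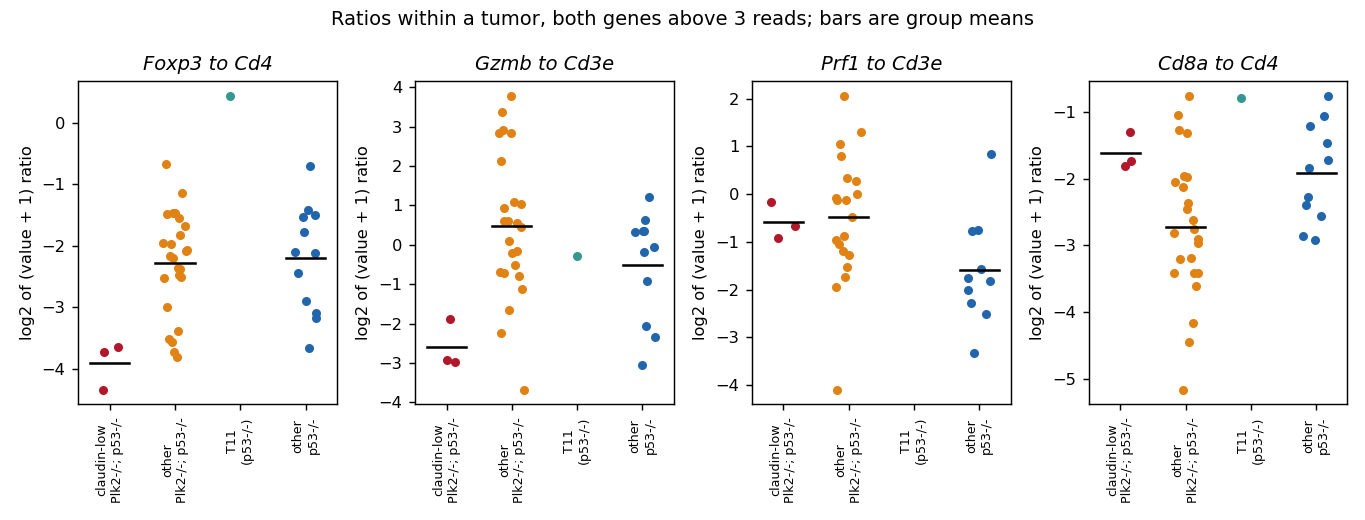
Each point is the log2 ratio of 2 genes (value + 1) in a tumor, for tumors with both genes above 3 reads, and bars are group means. T11 is absent for Prf1 to Cd3e because its Prf1 was at or below the floor. The 3 claudin-low Plk2-/-; p53-/- tumors lie at the low end for Foxp3 to Cd4, from -4.34 to -3.64 against -3.80 to -0.67 in the others, and Gzmb to Cd3e lies near the low end of the range of the others.

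Most of the genes followed Cd3e, the CD3 chain that pairs with each of the other two. Over the 25 other Plk2-/-; p53-/- tumors Pearson's r with Cd3e was 0.90 for Cd3g (Spearman's rho, 0.81), 0.87 for Cd8b1 (rho, 0.76), 0.82 for Cd8a (rho, 0.78), 0.79 for Cd3d (rho, 0.62), 0.77 for Cd4 (rho, 0.72), 0.74 for Foxp3 (rho, 0.54) and 0.70 for Nkg7 (rho, 0.64). Permutation p-values of r for these 7 genes were 0.00045 or lower, and adjusted over the 18 relations 0.000675 or lower. Several of the 25 were among the libraries most alike over all genes, and if such tumors are related these p-values are too small. For Prf1 r was 0.35 (rho, 0.18; permutation p = 0.0866, adjusted p = 0.0975) and for Gzmb 0.22 (rho, 0.10; permutation p = 0.287, adjusted p = 0.287). Without PLK2null-1981 and PLK2null-7763, the tumors farthest from the median of Cd3e, r was 0.84 for Cd3g, 0.59 for Cd3d, 0.11 for Prf1 and 0.30 for Gzmb. The relation of Foxp3 weakened without those tumors, with r at 0.43 (permutation test, p = 0.0413, adjusted p = 0.0531). Its rank relation over all 25 passed the adjusted threshold (permutation test of rho, adjusted p = 0.0076).

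Over the 13 p53-/- tumors, Gzmb (r = 0.75; rho, 0.66) and Prf1 (r = 0.77; rho, 0.73) did follow Cd3e, with adjusted permutation p-values of 0.00453 and 0.00312. Without p53null-5317 and p53null-5329, r was 0.52 for Gzmb and 0.62 for Prf1, and neither passed the adjusted threshold (permutation tests, adjusted p = 0.117 and 0.0531). Cd3g (0.94), Cd3d (0.94), Cd8b1 (0.93), Nkg7 (0.92) and Cd8a (0.90) followed Cd3e most closely, and Cd4 less so (r = 0.68; rho, 0.86). Foxp3 was the 1 gene with no call, at r = 0.45 (rho, 0.48; permutation p = 0.123, adjusted p = 0.130). Whether r differed between the genotypes was not tested.

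Cd3d departed from Cd3e in a number of tumors. In the 3 claudin-low Plk2-/-; p53-/- tumors the log2 ratio of Cd3d to Cd3e was -0.29 to 0.09, and in the 12 other p53-/- tumors it was -1.02 to 0.43 (median, -0.39). In the 25 other Plk2-/-; p53-/- tumors it ran from -2.82 to 0.47 (median, -1.13), and 13 lay below -1, a threshold chosen after the values were seen. In 7 of these 13 Cd3d was at or below the floor, which leaves 6 with a measured ratio, against 1 of the 12 other p53-/- tumors below -1. They include PLK2null-1981, with Cd3d worth 154 reads and Cd3e 555, and PLK2null-1987, with 15 and 97 reads, whereas PLK2null-7763 had 134 and 130. The rest of the 6 were nearer the floor of 3 reads. Cd3d was worth 5 reads in PLK2null-1984 and in PLK2null-1985, 8 in PLK2null-1989 and 12 in PLK2null-7753. Cd3g was also lower relative to Cd3e in the 13, by less. Both ratios share Cd3e, so picking tumors by a low Cd3d ratio can by itself lower the Cd3g ratio. The log2 ratio of Cd3g to Cd3e ran from -0.81 to 0.65 (median, -0.31) in the 13. In the other 12 it ran from -0.40 to 1.26 (median, 0.74), and it was below 0 in 8 of the 13 and 2 of the 12. Several of the 13 were among the libraries most alike over all genes. These were PLK2null-1984, PLK2null-1985 and PLK2null-1986 with PLK2null-7750, PLK2null-1987 with PLK2null-7753, and PLK2null-1977 with PLK2null-1980. If such tumors are related, these counts are not counts of independent tumors. This is a description with no test.

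**Figure D5:**
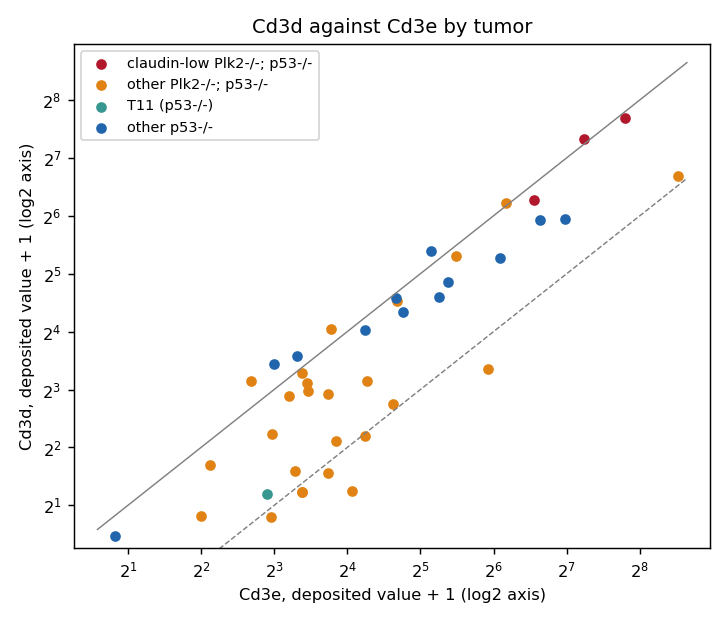
Each point is a tumor, with Cd3e on the horizontal and Cd3d on the vertical log2 axis, both as value plus 1. The solid line marks equal values and the dashed line a log2 ratio of -2. A number of other Plk2-/-; p53-/- tumors lie near the dashed line, while the claudin-low Plk2-/-; p53-/- tumors lie close to the solid line.

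The Foxp3 value is less certain than the others, because 31.5% of its 4577 merged exon bases also lie in exons of other genes. It shares 853 bases with Flicr on its own strand. On the opposite strand it shares 590 bases with Ccdc22, 373 with Gm36995 and 266 with Ppp1r3f, and the strand setting of the counting was not given in the sources used here. Ccdc22 lay between 482 and 1682 in every tumor, far above Foxp3. As a description, r between the 2 genes was 0.28 over the 41 tumors (rho, 0.32). It was 0.31 over the 25 other Plk2-/-; p53-/- tumors (rho, 0.43) and 0.58 over the 13 p53-/- tumors (rho, 0.58). Of the other 9 genes, Cd3e alone shared exon bases with another gene, 3.31% of its own.

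Genes related to the 10 were counted by list. Of the 20 genes of the T cell receptor complex and its signalling, 19 were tested in the claudin-low comparison, 15 were called higher and none lower, with a median log2 difference of 3.40 beside 0.02 over all genes. Among them were the receptor constant segment Trbc1 at 4.09 and Themis, a receptor signalling adaptor, at 3.77. Trac, the constant segment of the alpha chain, was 129, 214 and 297 in the 3 claudin-low tumors and 9.52 in T11. T11 nonetheless held Trbc2, a beta chain constant segment, at 592, the highest of all 41 tumors. Between the genotypes Lef1 (2.699) and Cd27 (1.17) were called higher and Trbc2 (-1.36) lower, and the list's median was 0.13 beside 0.10.

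Of 20 cytotoxic and natural killer genes 13 were tested, 2 were higher and 3 lower in the claudin-low tumors, and the median was 0.38. That share of calls is near the 37.3% of all genes. Gzma, a granzyme of T and natural killer cells, was higher by 2.37 and Klrd1, the receptor subunit CD94, by 2.20. The granzymes Gzmc (-3.52), Gzmd (-4.21) and Gzme (-4.50), which lie in the same cluster as Gzmb, were lower. Gzme was 0, 0 and 3.39 in the claudin-low tumors, against 0 to 493 (median, 80.1) in the other 25. Between the genotypes 1 gene was called, the chemokine Ccl5, with a difference of -1.29, lower in the Plk2-/-; p53-/- tumors.

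Of 10 regulatory T cell genes other than Foxp3, 8 were tested, 2 were higher in the claudin-low tumors (Lrrc32 at 3.97 and Tnfrsf4 at 1.13) and 3 were lower (Ikzf2 at -2.93, Tnfrsf18 at -1.37 and Ikzf4 at -1.19). The median was 0.51. The counts of this list and of the next 2 stand beside 20.2% of all genes called higher and 37.3% called in either direction, and nothing is read from them. Lrrc32, which anchors latent TGF-beta on regulatory T cells, is also expressed by endothelium. Il2ra, the high affinity interleukin 2 receptor chain, was 28.6 to 81.5 in the claudin-low tumors, against 5.36 to 189 in the others. Over the 41 tumors r with Foxp3 was 0.35 for Il2ra and 0.29 for Ctla4, another gene of this list, given as a description. Of 11 genes for chemokines and receptors that guide T cells, 4 were higher and 1 was lower, and the higher ones included the chemokine Ccl21a (12.10) and its receptor Ccr7 (3.85), which guide naive lymphocytes into lymph nodes. Of the 4 gamma-delta T cell genes tested, 1 was higher, the delta chain constant segment Trdc (2.20), and 1 was lower. Between the genotypes Ikzf2 (1.09) was called among the regulatory genes, and 0 of 11 chemokine genes and 0 of 4 gamma-delta genes were called by limma, with 1 and 0 at an unadjusted p below 0.05.

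The genes whose levels were most like Cd3e over the 41 tumors were Skap1 (r = 0.92), Cd2 (0.91), Ptprcap (0.90), Cd6 (0.90) and Gimap7 (0.89), on log2(value + 1). Gzmb had weaker companions. They were H2-K1 (r = 0.68), Hsh2d (0.67), H2-D1 (0.67), Slfn1 (0.64) and H2-Q1 (0.64), of which H2-K1 and H2-D1 encode class I antigen presenting molecules. The genes most like Foxp3 were Cd79a (r = 0.75), Fcrl1 (0.73), Cd2 (0.72), Ighd (0.72) and Xkrx (0.71), and Cd79a and Ighd encode parts of the B cell receptor. Over the 13 p53-/- tumors alone r with Foxp3 was 0.66 for Cd79a and 0.43 for Fcrl1. These values were picked as the highest of all genes and are a description.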

How the data were processed

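RNA was sequenced as paired-end mRNA libraries from 41 mouse mammary tumors, 28 Plk2-/-; p53-/- and 13 p53-/-. The submitters' processing notes name STAR 2.7.6a, Salmon 1.4.0, Picard 2.22.4, SAMtools and mm10. The deposited values are a linear signal per gene symbol that the authors scaled so that the upper quartile of nonzero values was 1000. Reads could not be recovered, since 77.9% to 80.5% of nonzero values lay within 0.1 read of a whole number, so a test on log2(value + 1) was used. Low values still gave the worth of a read and the depth. Genes with a mean of at least 10 entered limma 3.58.1 (R 4.3.3) with Benjamini-Hochberg adjustment over all genes tested at 0.05. The fits were tested on simulated data. Ratios and correlations used exact or 100000-resample 2-sided permutation tests (Python 3.11.15, scipy 1.17.1). Alternatives were the pseudocount, filter, scaling, limma trend, left-out tumors, and the 7 tumors named in the latency plot. The 10 genes and the other lists were chosen with earlier results of these data known. Positions and merged exons came from GENCODE vM21 and promoters from RefSeq. Named genes were the 10 genes, the largest called genes of each list (some are not reported here), and the 5 genes most like Cd3e, Gzmb and Foxp3. Claudin-low membership follows the study's naming of tumors and not the sample labels. Whether tumors came from separate transplant lines was not stated, so p-values measure the spread between these tumors.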

Additional observations from a re-analysis of the deposited data

Results flagged for a closer look

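Among the 4 claudin-low tumors, T11 lay far from the other 3 for Cd4 and Prf1. The gap from T11 to its nearest neighbour was 0.895 of the whole range for Cd4 and 0.877 for Prf1. For the other 8 genes it was 0.331 to 0.818 and not past the critical value, which chance passes in about 1 in 20 groups. The claudin-low difference was set against that of T11 from the other 12 p53-/- tumors, with log2 values of 7.41 for Cd3d, 6.17 for Cd8b1, 6.13 for Prf1, 5.73 for Cd3g, 5.604 for Cd4 and 5.38 for Cd8a. A limma interaction term picked out these 6 genes, but T11 is the sole claudin-low p53-/- tumor and the term was chosen after its values were seen. It is no test of the genotype, and the tumor and the genotype cannot be told apart.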

How the results depend on the processing

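Between the genotypes, 0 of the 10 genes were called under 10 of 11 alternatives. Without the claudin-low tumors 2 were called lower, beside 17.4% of all genes. Over the 7 tumors of the latency plot 2942 genes were called, and the log2 difference turned to -0.025 for Cd4, -0.46 for Cd8a, -0.057 for Prf1 and -0.11 for Foxp3. It turned to -0.13 for Cd8a and -0.046 for Foxp3 with quantile normalization, to -0.40 for Cd8a and -0.036 for Prf1 without the claudin-low tumors, and to 0.15 for Cd8b1 without p53null-7435. In the claudin-low comparison 2 genes were called with 4 against 37 tumors, beside 16.1% of all genes called higher, and Gzmb turned to -0.22 there. On leaving out any 1 claudin-low tumor 7 were called. In those fits 2446 to 2489 of the 17129 to 17131 genes tested were called higher. Nkg7 was also lost with no filter (adjusted limma p = 0.0526). Foxp3 to Cd4 ran from -1.75 to -1.40, Gzmb to Cd3e from -3.44 to -2.89 and Prf1 to Cd3e from -0.32 to 0.059 on leaving out 1 claudin-low tumor. Over all tumors, also those at the floor, Gzmb to Cd3e was -2.98 and Prf1 to Cd3e 0.41. Without the 2 tumors farthest in Cd3e, r was 0.43 for Foxp3 in the other Plk2-/-; p53-/- tumors, and 0.52 for Gzmb and 0.62 for Prf1 in the p53-/- tumors. The cause of these changes was not tested. Depth limits Cd3d and Prf1 most. No paired analysis was possible because the tumor numbers are not shared between the groups.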

Other observations

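Dendritic cell genes were higher in the 3 claudin-low Plk2-/-; p53-/- tumors for 4 of the 5 tested (median log2 difference, 2.04; 20.2% of all genes were called higher), led by Clec9a, Zbtb46 and Siglech. Of 6 fibroblast genes 3 were lower, Lum, Dcn and Pdgfra, with a list median of -2.27. None of the 5 neutrophil genes tested was called by limma there, and 0 had an unadjusted p below 0.05. Between the genotypes Cxcr2 and Csf3r of that list were called higher in the Plk2-/-; p53-/- tumors, 2 of 5 tested beside 39.5% of all genes called, with a list median of 1.204.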
